A study of Mus musculus with 48 samples.

Results

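The expression of oxidative phosphorylation genes was examined in sorted mouse α and β cells. They came from control mice and from mice given doxycycline, which switches on a toxin meant to remove β cells. Members were chosen by symbol alone. A protein-coding gene was taken where its symbol began with Nduf followed by a, b, c, s or v, with Uqcr, with Cox and a digit from 4 to 8, with Atp5 or with mt-, or was Sdha, Sdhb, Sdhc or Sdhd. This gave 105 of the 42713 genes measured, 92 encoded in the nucleus and 13 on mitochondrial DNA. Of the nuclear members, 74 are subunits of the complexes found in most tissues (36 of complex I, 4 of complex II, 8 of complex III, 11 of complex IV and 15 of complex V). A further 8 are tissue-restricted or conditional isoforms of complex IV subunits, and 10 are assembly factors or other genes that share the symbols (Ndufaf1 to Ndufaf8, Cox7a2l and Atp5s). The mitochondrial members comprise 7 genes of complex I, 1 of complex III, 3 of complex IV and 2 of complex V.

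Oxidative phosphorylation passes electrons from NADH through complex I, and from succinate through complex II, to complexes III and IV, which hand them to oxygen. The pumping of protons by complexes I, III and IV drives complex V, the ATP synthase. All of these except complex II combine subunits read from nuclear genes with subunits read from mitochondrial DNA. In β cells, which release insulin, the rise of ATP with glucose closes ATP-sensitive potassium channels and sets off secretion. α cells release glucagon.

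The cells came from islets of male mice aged 6 to 8 weeks that carry Insulin-rtTA and TET-DTA, the reporters ProGcg-Venus and RIP-Cherry, and PER2::Luc, and were separated by flow cytometry. The reporters mark α cells (Venus) and β cells (Cherry), PER2::Luc reports the clock, and under doxycycline the rtTA made from the insulin promoter switches on diphtheria toxin A, which kills the cell that makes it. Controls (CTR) carried the same transgenes and drank water with 2% sucrose. Treated mice (DOX) received 300 mg of doxycycline in that water, and no group received the drug without the toxin transgenes. Light and dark lasted 12 h each, food was given at night from 10 days before, and part of the animals had an inverted cycle for 2 weeks. Collection ran over a day in steps of 4 h, at ZT (zeitgeber time, hours after lights on) 0, 4, 8, 12, 16 and 20. Each time gave 2 libraries of each of the 4 kinds (control α, DOX α, control β and DOX β), hence 12 libraries of a kind. The labels do not say that replicates come from separate animals, so p-values measure the spread between these libraries.

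Libraries held 16.1 to 69.9 M estimated counts (M for mega). By the dates in the titles there were 2 sequencing runs, an earlier one with replicate 1 of ZT4 to ZT20 (16.1 to 28.6 M) and a later one with replicate 2 of every group and both ZT0 replicates (37.4 to 69.9 M). The run was a term in every comparison. The summed α-cell markers had a median of 301387 CPM (counts per M counts, with library sizes scaled by TMM) in control α and 713 in control β cells, and the β-cell markers 294195 CPM in control β and 641 in control α cells. In DOX β cells the α-cell markers ranged from 1423 to 3778 CPM, against 348 to 859 in control β cells. Markers of macrophages and dendritic cells, 14 genes of which 0 stood at 0 in every library, summed to 138 to 1668 CPM (median 803) in DOX β cells against 55.8 to 403 (median 194) in control β cells. In sorted populations such as these, fewer cells of a type and less RNA per cell cannot be told apart.

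Of the 13 mitochondrial genes, 7 gave most of the signal and 6 were near 0. mt-Co2 stood at 0 in 29 of 48 libraries and reached at most 4 counts, mt-Atp6 was at 0 in 32 and mt-Atp8 in 39. mt-Co3 reached at most 6 counts, mt-Nd4l was at 0 in 46 libraries, and mt-Nd3 had 2 to 110 counts. In the reference transcripts 99.5% of the 50-base windows of mt-Co2 and of mt-Atp6, 99.9% of those of mt-Co3, 98.0% of those of mt-Nd3 and 98.8% of those of mt-Nd4l also occur in pseudogenes that lie side by side on chromosome 1 (GRCm38, bases 24611535 to 24616197). How reads shared by such copies were counted is not given in the sources used here, so the values of these genes are uncertain. The pseudogenes did not hold the counts instead, with medians of 0 to 10 counts. mt-Co2 and its copy Gm28661 are shown because they are the plainest case, with 0 substitutions over the 681 bases compared. Bases 11 to 70 of each transcript (GENCODE) are:
mt-Co2: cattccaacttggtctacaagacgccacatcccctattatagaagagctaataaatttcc
Gm28661: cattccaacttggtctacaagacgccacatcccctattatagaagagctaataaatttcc
mt-Nd4 shares 62.2% and mt-Co1 28.7% of their windows with these copies, so their values are uncertain to that extent. mt-Nd1, mt-Nd2, mt-Nd5, mt-Nd6 and mt-Cytb share 0 windows. mt-Atp8 also shares 0 windows and had 0 to 2 counts. Only annotated transcripts were compared, so copies that lie outside them would not be seen. mt-Nd5 and mt-Nd6 overlap on opposite strands (bases 13552 to 13565), and the libraries do not mark strand, so reads of their overlap cannot be assigned. RNA read from the plus strand across mt-Nd6 could also be counted as mt-Nd6, so its values are uncertain.

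Per length, the mitochondrial transcripts were the most abundant members. On the deposited RPKM scale (reads per kilobase of transcript and M reads), mt-Co1, the catalytic core of complex IV, ranged from 2835 to 4629 in control α cells (median 3464) and from 3201 to 8006 in control β cells (median 4878). mt-Cytb of complex III had medians of 2733 and 3936, and mt-Nd1 of complex I of 2088 and 1662. The other 4 had medians between 753 RPKM (mt-Nd4 in β cells) and 1427 RPKM (mt-Nd5 in α cells). Among nuclear members in control β cells, the highest median was that of Cox8a, a small subunit of complex IV (248 RPKM), followed by Atp5a1 and Atp5b, the α and β chains of the ATP synthase head (185 and 125 RPKM), Cox6a1 (134 RPKM) and Ndufa1 (114 RPKM). The lowest subunits were Atp5l (1.90 RPKM), Ndufab1 (2.19 RPKM) and Ndufb4 (2.60 RPKM). RPKM divides by the gene length in the files, which sums all annotated exons, so a gene such as Atp5g1 (4912 bases) reads lower than a compact one such as Ndufa1 (419 bases). Over the subunits of a complex, the median over subunits was 21.2 RPKM for complex I, 42.7 for complex II, 47.3 for complex III, 48.8 for complex IV and 32.3 for complex V in control β cells. In control α cells these medians were 21.5, 33.3, 53.4, 36.7 and 40.3 RPKM.

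**Figure D1:**
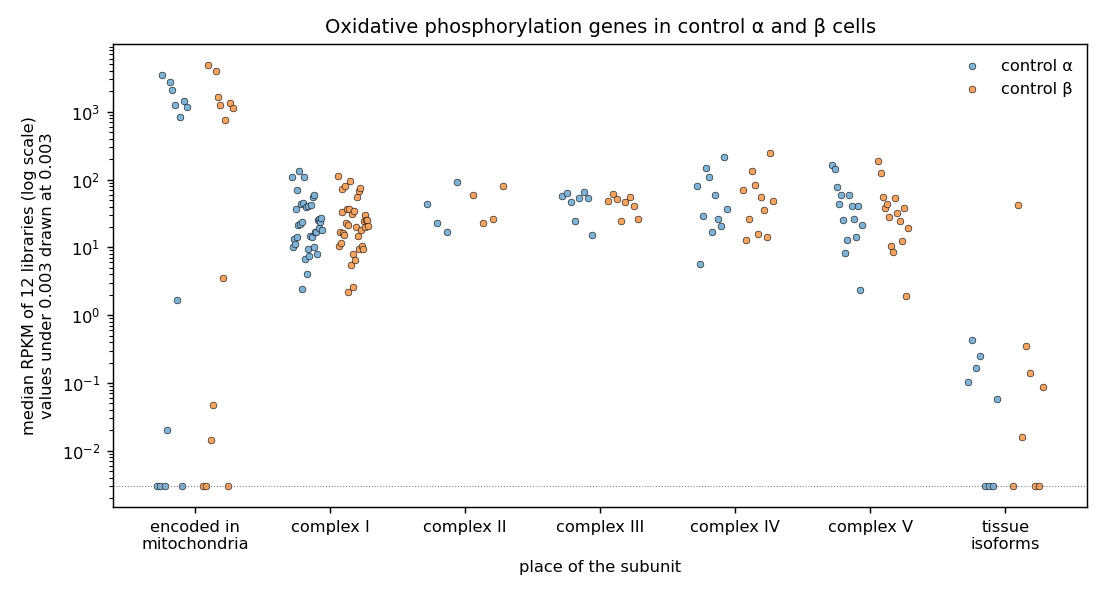
Median RPKM over 12 libraries (log axis) of each subunit and isoform in control α and control β cells, by genome of origin and complex, with 1 point per gene (assembly factors not drawn) and values under 0.003 drawn at 0.003. The 7 mitochondrial genes that gave most of the signal lie above all nuclear members. The isoforms other than Cox6a2 lie at the bottom of the axis.

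Of the 8 isoforms, Cox6a2 alone was expressed to any extent, and only in β cells. Cox6a2, known as the heart and skeletal muscle form of a complex IV subunit whose general form is Cox6a1, lies on chromosome 7 (GRCm38, bases 128205435 to 128206387, minus strand) and overlaps Itgad on the other strand. It stood at 13.2 CPM at the lowest, 29.9 at the median and 56.5 at the highest in control β cells, and at 6.92, 14.1 and 32.7 CPM in DOX β cells. In control α cells it stood at 0, 0.272 and 0.677 CPM, and in DOX α cells 6 of 12 libraries were at 0 and the highest was 0.350 CPM. All 24 β-cell libraries thus lay above all 24 α-cell libraries. By length its median in control β cells was 41.7 RPKM beside 134 RPKM for Cox6a1. The other 7 isoforms stayed under 1 CPM in every library. These were Ndufa4l2 (highest 0.795 CPM), Cox6b2 (0.714), Cox7b2 (0.613), Cox7a1 (0.575), Cox4i2 (0.298) and Cox8b (0.086), with Cox8c at 0 in all 48 libraries.

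As a share of all counts, the mitochondrial genes together took a median of 1.60% in control α cells (1.20 to 2.14% over 12 libraries), 1.80% in DOX α (1.21 to 2.39%), 1.91% in control β (1.48 to 3.25%) and 1.79% in DOX β cells (1.44 to 2.33%). The nuclear members together took 0.530, 0.508, 0.525 and 0.522%. Ranges overlapped between all groups. Compared library by library at the same time and replicate number, the mitochondrial share was higher with DOX in 7 of 12 pairs in α cells and in 5 of 12 in β cells, and the nuclear share in 2 of 12 and 5 of 12. At ZT0 the replicate numbers may not pair the libraries. There the deviations of same-numbered control and DOX libraries over all genes correlated at -0.48 in α and -0.39 in β cells. The mitochondrial share differed more between the runs than between the treatments, with medians of 2.10% in the earlier and 1.69% in the later run in control β cells and of 2.09 and 1.63% in DOX β cells. In control α cells these medians were 1.97 and 1.59%, and in DOX α cells 1.91 and 1.69%. Since glucagon (Gcg) and insulin (Ins1 and Ins2) took 21.8 to 39.6% of the counts of a library, shares of all counts move with the hormones as well.

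**Figure D2:**
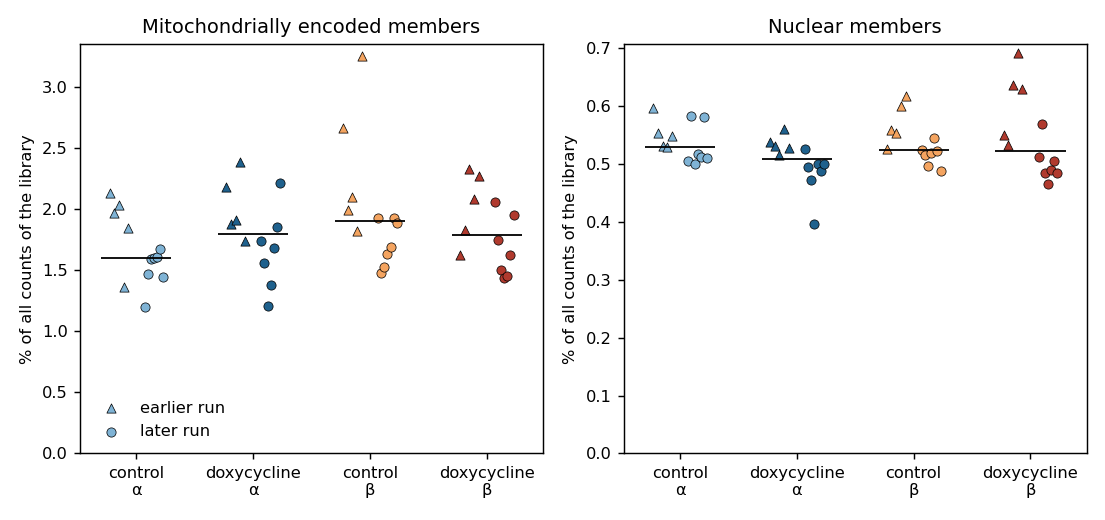
Share of all counts (%) held by the mitochondrial genes and by the nuclear members in each of the 48 libraries, by cell type and treatment, with triangles for the earlier run, circles for the later run and a line at the median. The 4 groups overlap in both panels, and the triangles tend to lie above the circles for the mitochondrial genes.

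Comparison of β with α cells in control mice asks which parts of the machinery differ between these cells. In control mice β cells had more Cox5a, Uqcrq, Sdha and Sdhc and more of the mitochondrial transcripts mt-Cytb and mt-Co1, and less of Ndufa6, Ndufs4 and Atp5c1. Of 85 nuclear members tested, 21 were higher and 35 lower in β cells, and of 8 mitochondrial genes 3 were higher and 0 lower (edgeR quasi-likelihood test, Benjamini-Hochberg adjusted p under 0.05 over all genes). Together 59 of 93 differed, where 71.4% of all genes tested did (34.2% higher, 37.3% lower), so members differed no more often than genes in general. Cox6a2 is 1 of the 21, but it passed the filter on low counts only through β cells and so had to differ. The median log2 fold change (β over α) was -0.08 over nuclear members and -0.03 over all genes. By complex, 7 nuclear subunits were higher and 15 lower of 36 in complex I, 2 and 1 of 4 in complex II, 1 and 4 of 8 in complex III, 4 and 4 of 11 in complex IV, and 2 and 9 of 15 in complex V.

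Cox5a is a nuclear subunit of complex IV on chromosome 9 (bases 57521274 to 57532426). It stood at 10.5, 12.0 and 16.4 CPM in control α cells (lowest, median and highest of 12) and at 19.0, 28.9 and 33.6 CPM in control β cells. The groups did not overlap, and the log2 fold change was 1.09 ± 0.07 (SE, edgeR adjusted p = 1.07e-11). Sdha, the flavoprotein of complex II that oxidises succinate (chromosome 13, bases 74322254 to 74350280), stood at 146, 181 and 192 CPM in α and 206, 239 and 280 CPM in β cells, again without overlap (0.41 ± 0.05). Cox6a2, whose levels are given above, was the third member without overlap, where 23.1% of all genes did not overlap. Uqcrq, a small subunit of complex III, ranged from 20.6 to 40.8 CPM in α and from 34.3 to 61.7 CPM in β cells (0.71 ± 0.08). Sdhc, a membrane anchor of complex II, differed by 0.60 ± 0.08, and Ndufa4 and Cox7b of complex IV by 0.43 and 0.47. The means of Cox5a, Cox6a2, Sdha and Uqcrq were higher in β cells at 6 of 6 times.

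In the other direction, Ndufa6, an accessory subunit of complex I, stood at 60.5, 74.3 and 101 CPM in α and at 36.0, 44.6 and 65.8 CPM in β cells, ranges that overlap (-0.74 ± 0.07, edgeR adjusted p = 1.96e-09). Ndufs4, another accessory subunit, had a change of -0.63 ± 0.06, Atp5c1, the central shaft of the ATP synthase, of -0.53 ± 0.07, and Uqcrh and Cox7c of -0.52 and -0.51. The iron-sulfur protein of complex III, Uqcrfs1, was lower by -0.38 and the complex IV subunits Cox4i1 and Cox6b1 by -0.30 and -0.37. The 3 genes for the same c-ring protein of ATP synthase went apart, with Atp5g1 at 0.43 ± 0.07, Atp5g2 at -0.54 ± 0.08 and Atp5g3 at -0.11 (adjusted p = 0.191). Core subunits such as Ndufs1, Ndufv1, Sdhb and Uqcrc1 had values from -0.08 to 0.07 and did not pass. Atp5a1 and Atp5b, at 0.15 and -0.17, passed. Atp5a1 did not pass in the later run alone, without a filter, or without any 1 of 10 libraries (control α ZT0 and ZT4 replicate 1 and ZT8, ZT12 and ZT20 replicate 2, control β ZT8 and ZT12 replicate 1 and ZT4, ZT16 and ZT20 replicate 2, lowest 0.13), and Atp5b did not pass in the earlier run alone.

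Among the mitochondrial transcripts, mt-Cytb stood at 2008, 3043 and 4621 CPM in control α and 2924, 4516 and 8590 CPM in control β cells (0.51 ± 0.10, edgeR adjusted p = 6.85e-05). mt-Co1 stood at 3866, 5183 and 7545 CPM in α and 4453, 7708 and 13340 CPM in β cells (0.44 ± 0.10, adjusted p = 0.000518). Both were higher in β cells at 6 of 6 times, with overlapping ranges. mt-Nd3 was also called, at 0.91 ± 0.25, on few counts and not in the earlier run alone. The complex I transcripts mt-Nd1, mt-Nd2, mt-Nd4, mt-Nd5 and mt-Nd6 had changes from -0.28 to 0.05 and did not pass (lowest adjusted p = 0.103). In the same libraries 10 of 13 macrophage and dendritic markers were higher in β cells. Lower there were 3 of 3 δ, PP and ε markers (summed median 557 CPM against 20250 in α cells), 11 of 11 acinar (46.5 against 224), 2 of 3 duct (11.4 against 68.4) and 3 of 5 stellate and fibroblast markers (9.30 against 54.5). Of 3 endothelial markers 0 differed. The part of these cell types in the differences of the members was not tested.

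In DOX mice β cells again had more Cox5a, Uqcrq and Atp5g1 than α cells, and more Ndufa1 and Ndufc2. In controls the median of Ndufc2 was 54.6 RPKM in α and 68.8 RPKM in β cells. Of 85 nuclear members 27 were higher (Cox6a2 among them, again through β cells alone) and 20 lower, with mt-Cytb higher (0.24 ± 0.08) and mt-Nd1 lower (-0.35 ± 0.14), where 71.2% of all genes differed (35.6% higher, 35.7% lower). Over both genomes 28 were higher and 21 lower, and without the ZT0 libraries 21 were higher and 27 lower. The call of mt-Cytb was lost in each run alone, without a run term, and without ZT0, ZT16 replicate 2 of α or ZT0, ZT8 replicate 2 of β cells. That of mt-Nd1 was lost without ZT4, ZT12 or ZT16 replicate 1 or ZT8 replicate 2 of α cells, or ZT4 replicate 1 of β cells. Uqcrq (1.14 ± 0.08) and Cox5a (1.02 ± 0.09) were higher and Atp5s (-0.64 ± 0.08) was lower without overlap, as was the case for Cox6a2, where 20.6% of all genes did not overlap. Ndufa1 (0.99 ± 0.11), Atp5g1 (0.93 ± 0.10) and Ndufc2 (0.81 ± 0.10) were further up, and Ndufa6 (-0.74 ± 0.07) was lower as in controls. Sdha, apart without overlap in controls, differed by 0.10 (adjusted p = 0.147), and mt-Co1 by 0.03 (adjusted p = 0.789). In these libraries 14 of 14 macrophage and dendritic markers were higher in β cells (summed median 803 CPM against 88.4 in α cells). Lower were 3 of 3 δ, PP and ε markers (933 against 29101 CPM), 5 of 11 acinar (14.8 against 117), 1 of 3 duct (31.6 against 137) and 1 of 5 stellate and fibroblast markers (28.7 against 65.4). Their part was not tested.

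Comparison of DOX with control β cells asks what the β cells that are sorted after the ablation express. In these β cells 12 subunits of complexes I, III, IV and V were higher, led by Ndufa1, while Sdha, Cox6a2 and the assembly factors Ndufaf8, Ndufaf6 and Ndufaf3 were among the lower, and most members did not pass. Of 85 nuclear members 12 rose and 7 fell, and of the 8 mitochondrial genes 0 rose and 1 fell (edgeR). These 20 of 93 set against 46.9% of all genes tested (23.8% higher, 23.1% lower), so fewer members passed than genes in general. The groups did not overlap in CPM for 0 members, where 2.48% of all genes did not overlap. Of the 74 subunits 12 rose and 2 fell (5 and 0 in complex I, 0 and 1 in complex II, 2 and 0 in complex III, 1 and 1 in complex IV, 4 and 0 in complex V), and of the 10 assembly factors and other genes 0 rose and 4 fell. The later run alone gave 6 calls, 3 up and 3 down, and without the ZT0 libraries 10 members were up and 11 down.

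Ndufa1, a small membrane subunit of complex I encoded on the X chromosome (bases 37187588 to 37191163), stood at 35.9, 46.8 and 74.3 CPM in control and 57.4, 96.8 and 187 CPM in DOX β cells. The ranges overlapped, and the mean was higher with DOX at 6 of 6 times (log2 fold change 0.99 ± 0.11, edgeR adjusted p = 1.09e-06). It was 1.29 ± 0.10 in the earlier and 0.79 ± 0.12 in the later run taken alone. Atp5g1, 1 of the c-ring genes, stood at 38.2, 50.6 and 71.5 CPM in control and at 45.6, 73.4 and 118 CPM in DOX β cells (0.49 ± 0.10, higher at 6 of 6 times). Ndufc2 of complex I stood at 34.6, 53.3 and 88.7 CPM and then at 41.7, 67.2 and 111 CPM (0.45 ± 0.10), also higher at 6 of 6 times.

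Uqcrq rose by 0.41 ± 0.09, from a median of 45.9 to 64.8 CPM, and did not pass in the later run alone (0.31, adjusted p = 0.0947). Ndufs5 had a change of 0.67 ± 0.24 (adjusted p = 0.025), which did not pass in either run alone or without DOX β ZT8 replicate 2 (adjusted p = 0.0599). Smaller rises were those of Atp5o (0.30), Uqcrh (0.29), Cox7c (0.27), Ndufa13 (0.24), Ndufs4 (0.22), Atp5j2 (0.22) and Atp5f1 (0.16). Ndufs4 did not pass without DOX β ZT4 replicate 1, ZT12 replicate 2 or ZT20 replicate 1 (adjusted p up to 0.0644). Several of these genes overlap others, Atp5o, Ndufa13 and Atp5f1 among them, and the counts do not separate strands.

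Among the falls, Sdha stood at 206, 239 and 280 CPM in control and 160, 184 and 214 CPM in DOX β cells (-0.40 ± 0.06, edgeR adjusted p = 2.14e-05). It was lower at 6 of 6 times and in each run (-0.52 in the earlier and -0.31 in the later run), and its median in DOX β cells lay inside the range of control α cells. The other complex II subunits did not pass, with Sdhb at 0.02, Sdhc at -0.13 and Sdhd at -0.06. Cox6a2 fell by 0.97 ± 0.17 on the log2 scale (adjusted p = 0.00011), also lower at 6 of 6 times. Its partner Cox6a1 had a change of 0.15 (adjusted p = 0.0816). Cox8a had a change of -0.21 (adjusted p = 0.0277), which did not pass without control ZT8 replicate 1, or replicate 2 of control ZT4, ZT16 or ZT20 or of DOX ZT4, ZT16 or ZT20 (adjusted p up to 0.068). Of the assembly factors of complex I, Ndufaf8 fell by 0.49 ± 0.11, Ndufaf6 by 0.44 ± 0.11 and Ndufaf3 by 0.21 ± 0.07, and Atp5s by 0.28 ± 0.07. Ndufaf3, which overlaps Impdh2, did not pass without replicate 2 of DOX ZT0, ZT16 or ZT20 or of control ZT16 (adjusted p up to 0.0627).

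mt-Co1 was the mitochondrial gene called in DOX β cells, with 4303, 6153 and 8243 CPM against 4453, 7708 and 13340 CPM in control (-0.29 ± 0.11, edgeR adjusted p = 0.0394). The call was lost without a run term (adjusted p = 0.107), in the later run alone (-0.16, adjusted p = 0.475) and without any 1 of 14 of the 24 libraries (adjusted p up to 0.0838). These were control ZT0, ZT8 and ZT12 replicate 1, ZT4 and ZT20 replicate 2 and both of ZT16, and DOX ZT4 and ZT12 replicate 1, ZT0, ZT16 and ZT20 replicate 2 and both of ZT8. The other 7 mitochondrial genes had changes from -0.09 to 0.09 and did not pass. In the same libraries 14 of 14 macrophage and dendritic markers, 4 of 5 α-cell markers, 4 of 6 stellate and fibroblast markers, 3 of 3 δ, PP and ε markers, 1 of 11 acinar and 1 of 3 duct markers rose. The summed acinar markers reached 5040 CPM in DOX against at most 262 in control β cells (medians 14.8 and 46.5), and the duct markers had medians of 31.6 and 11.4 CPM. Their part in the changes of the members was not tested.

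The promoters of 4 of these genes are shown because the genes head the comparisons in different directions. Each line gives 250 bases before to 50 bases after the annotated start (RefSeq, GRCm38.p6, read 5′ to 3′ on the gene's strand), at chr13:74350191-74350490 on the minus strand for Sdha, chrX:37191189-37191488 on the minus strand for Ndufa1, chr11:96075582-96075881 on the minus strand for Atp5g1 and chr9:57520982-57521281 on the plus strand for Cox5a. Capitals mark matches, on either strand, to NRF1 (GCGCA, any base, then GCGC), ETS (CCGGAAG), YY1 (AAGATGGCG), SP1 (GGGCGG) or the E-box (CACGTG).
Sdha: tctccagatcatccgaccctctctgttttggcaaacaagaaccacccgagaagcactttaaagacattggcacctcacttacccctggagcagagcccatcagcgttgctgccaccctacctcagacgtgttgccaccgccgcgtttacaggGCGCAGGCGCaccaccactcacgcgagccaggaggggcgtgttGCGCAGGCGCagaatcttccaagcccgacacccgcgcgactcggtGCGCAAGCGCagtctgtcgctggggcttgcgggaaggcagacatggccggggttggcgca
Ndufa1: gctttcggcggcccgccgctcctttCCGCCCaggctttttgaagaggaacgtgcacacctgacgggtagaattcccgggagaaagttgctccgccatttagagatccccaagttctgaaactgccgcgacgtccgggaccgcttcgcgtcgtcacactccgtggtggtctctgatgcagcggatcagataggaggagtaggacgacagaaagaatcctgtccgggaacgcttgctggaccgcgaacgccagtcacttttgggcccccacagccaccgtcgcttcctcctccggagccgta
Atp5g1: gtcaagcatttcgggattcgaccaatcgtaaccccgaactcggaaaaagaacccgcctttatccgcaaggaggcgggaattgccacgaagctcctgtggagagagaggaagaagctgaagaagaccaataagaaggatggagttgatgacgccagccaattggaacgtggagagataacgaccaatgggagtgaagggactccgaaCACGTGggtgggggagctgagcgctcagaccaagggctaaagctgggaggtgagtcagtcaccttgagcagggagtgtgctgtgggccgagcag
Cox5a: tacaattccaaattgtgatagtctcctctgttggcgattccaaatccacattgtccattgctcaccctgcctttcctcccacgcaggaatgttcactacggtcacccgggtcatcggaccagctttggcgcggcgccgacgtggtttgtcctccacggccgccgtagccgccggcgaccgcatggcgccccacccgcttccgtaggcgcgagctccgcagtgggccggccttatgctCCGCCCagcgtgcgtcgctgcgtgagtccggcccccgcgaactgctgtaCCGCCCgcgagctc
Sdha holds 3 NRF1 matches, at 98, 55 and 10 bases before the start. Among promoters read but not printed, that of Cox6a1 holds NRF1 matches at -162 and -117 and an ETS match at -16 from the start. It also holds SP1 matches at -139 and -44. Cox6a1 was not called with DOX in β cells. The promoter of Ndufc2, which rose there, holds no match. Ndufa1 holds 1 SP1 match, Atp5g1 1 E-box and Cox5a 2 SP1 matches. The RefSeq starts need not be those of the gene positions given above. The window of Ndufa1 lies wholly outside the bases given for that gene. A match describes letters and not binding. Of 92 nuclear members 74 had an entry, with 79 promoters, and 18 did not, among them Cox6a2 and Uqcrq. NRF1 matches were in 25.3% of the members' promoters and 4.6% of all 32851 promoters, ETS in 22.8 and 8.86%, YY1 in 10.1 and 1.4%, SP1 in 43 and 35.7%, and the E-box in 7.59 and 7.15%. At least 1 of the NRF1, ETS and YY1 motifs was in 49.4% of the members' promoters and 13.6% of all.

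**Figure D3:**
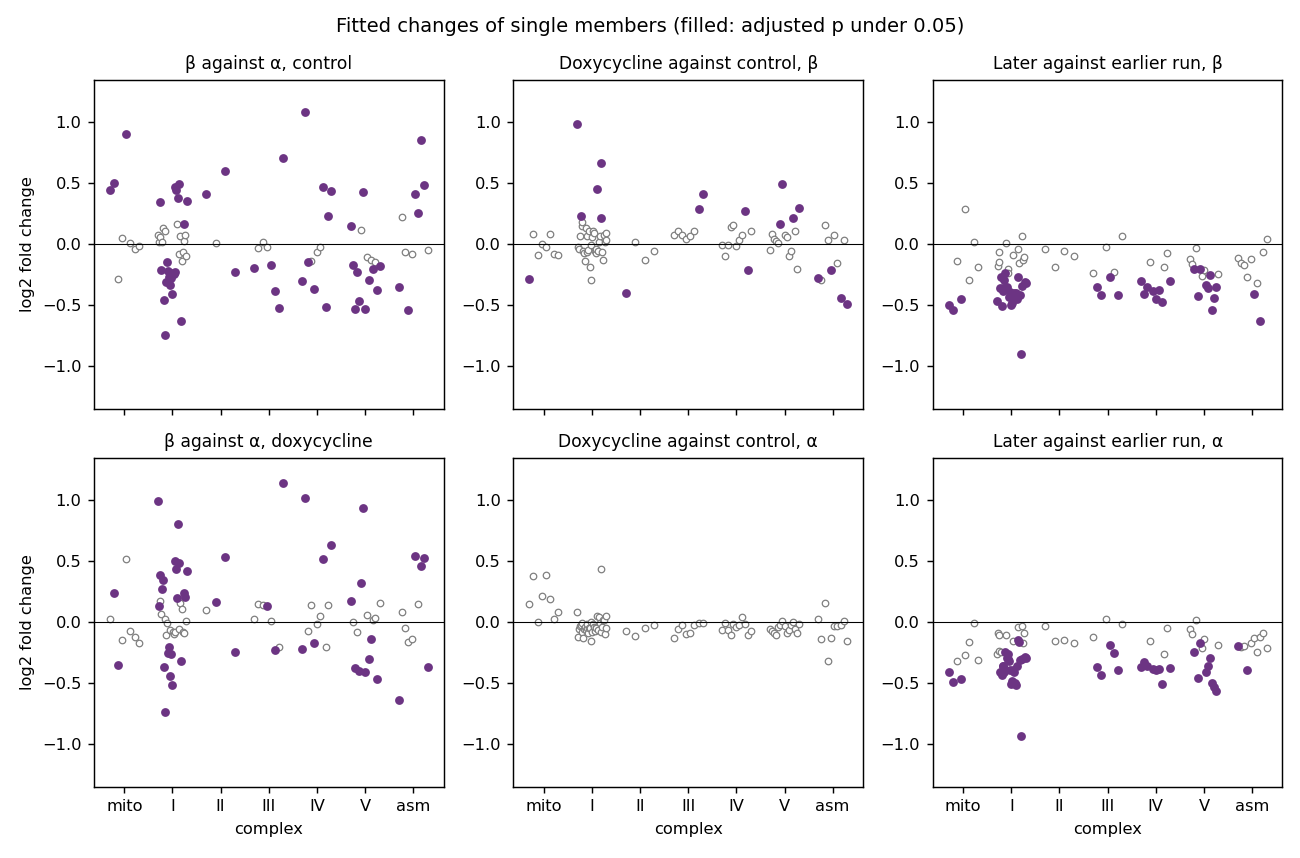
Log2 fold change of each tested nuclear subunit, assembly factor and mitochondrial gene in 6 comparisons (1 panel each), by complex, with filled points where the edgeR adjusted p was under 0.05 (mito, mitochondrial; asm, assembly and other; isoforms not drawn). Members scatter on both sides of 0 between β and α cells, few are filled for DOX in β cells and 0 for DOX in α cells, and most filled points lie below 0 in the later against the earlier run.

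Comparison of DOX with control α cells asks what differed in the neighbouring cells, since the toxin is under the insulin promoter. No group received the drug without the toxin transgenes, so drug and ablation cannot be told apart here. Of 84 nuclear members 0 passed, and of 8 mitochondrial genes 0 (edgeR), where 0.127% of all genes did (0.0804% higher, 0.0469% lower). At an unadjusted p under 0.05 there were 5 members, where 7.86% of all genes were, and DESeq2 called 1. That 1 was mt-Cytb, at 2008, 3043 and 4621 CPM in control and 2759, 4635 and 5884 CPM in DOX α cells (0.38 ± 0.08, edgeR adjusted p = 0.0577). Its mean was higher with DOX at 6 of 6 times, and edgeR called it without a filter on low counts, and without DOX α ZT12 replicate 2 or ZT16 replicate 2. All 8 mitochondrial genes had positive values, from 0.00 to 0.39, and 13 of 84 nuclear members did. Members share libraries, so these signs are not independent of each other and are no test. The ratio of the mitochondrial to the nuclear share was higher with DOX in 2 of 5 pairs of the earlier run and 6 of 7 of the later run. Ndufa1 had 0.09 and Sdha -0.07 (adjusted p = 0.942 and 0.823). Acinar markers summed to at most 946 CPM in control and 7327 CPM in DOX α cells, and of these 11 markers 0 passed.

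Whether the DOX effect differed between β and α cells was tested over all 48 libraries. It did for 7 nuclear members, 5 with a more positive effect in β cells and 2 with a more negative one, and for 1 mitochondrial gene, 8 of 94 where 25.5% of all genes differed (12.7% more positive, 12.8% more negative). Ndufa1 (0.88 ± 0.16, edgeR adjusted p = 0.00011), Atp5g1 (0.47 ± 0.14), Uqcrq (0.40 ± 0.14), Ndufc2 (0.39 ± 0.12) and Ndufs4 (0.28 ± 0.10) were the 5, and Sdha (-0.34 ± 0.08, adjusted p = 0.0017), Atp5s (-0.32 ± 0.08) and mt-Co1 (-0.45 ± 0.14, adjusted p = 0.0177) the others. Ndufa1 passed in each run alone. Sdha and Atp5g1 passed in the earlier run and not in the later (adjusted p = 0.233 and 0.151). mt-Co1 (adjusted p = 0.0579 and 0.365), Atp5s, Uqcrq, Ndufc2 and Ndufs4 passed in neither run alone. Without a run term mt-Co1, Ndufc2 and Ndufs4 did not pass (adjusted p = 0.0779, 0.0846 and 0.172). Without the ZT0 libraries Ndufc2, Uqcrq and Ndufs4 did not pass (adjusted p = 0.121, 0.113 and 0.186), and 2 members had a more positive and 5 a more negative effect in β cells. Uqcrq did not pass without control α ZT0 replicate 2, DOX β ZT12 replicate 2, DOX α ZT16 replicate 2 or control β ZT4 replicate 1, and Ndufs4 did not without any 1 of 26 libraries (adjusted p up to 0.0765). Without DOX α ZT16 replicate 1 the count was 16.

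**Figure D4:**
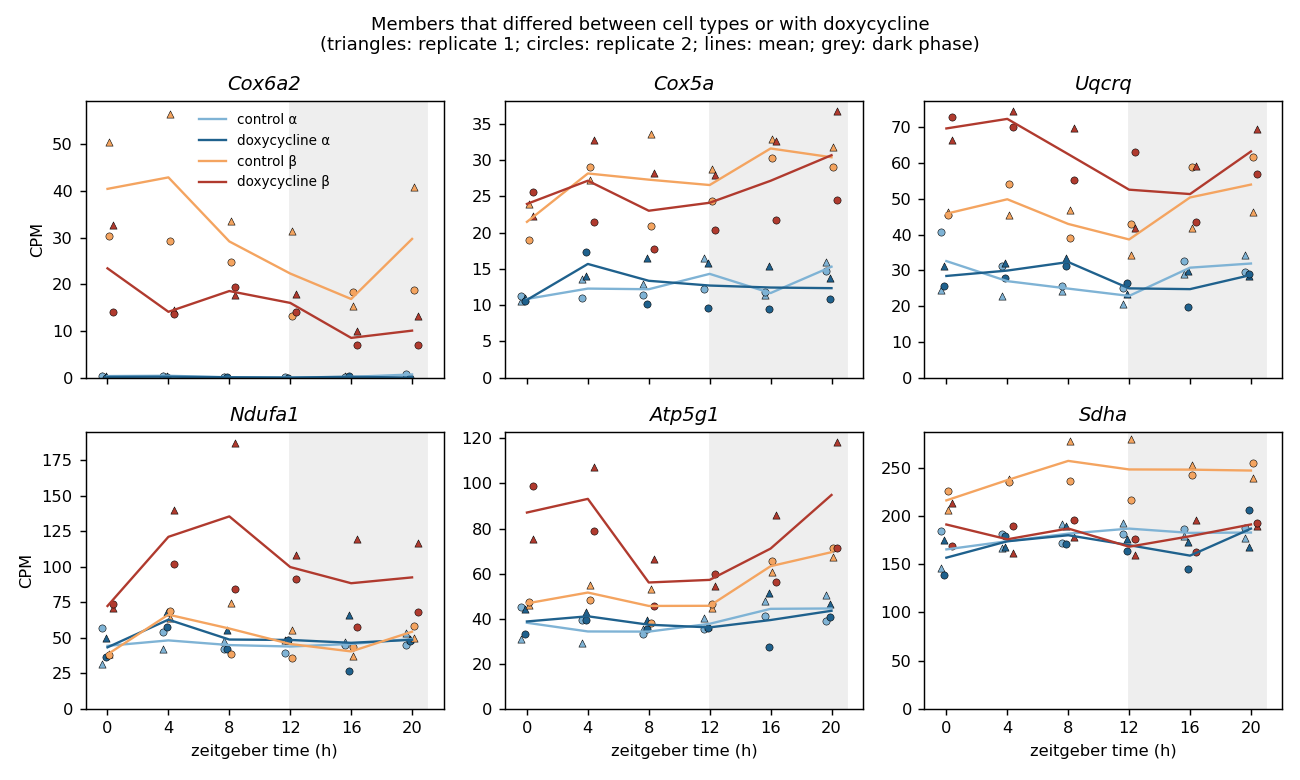
CPM of Cox6a2, Cox5a, Uqcrq, Ndufa1, Atp5g1 and Sdha in each library by zeitgeber time (h), for control and DOX α and β cells, with triangles for replicate 1, circles for replicate 2, lines through the mean and the dark phase in grey. Cox6a2 and Cox5a separate the cell types at every time, Ndufa1 and Atp5g1 are raised in DOX β cells, and Sdha in DOX β cells lies near the α cells.

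More members were called between the sequencing runs than between the treatments. In β cells 0 nuclear members were higher and 48 lower of 85 in the later run, with mt-Cytb (-0.54 ± 0.11), mt-Co1 (-0.50) and mt-Nd2 (-0.45) lower among the mitochondrial genes, where 21.4% of all genes differed, 11.3% higher and 10.1% lower (edgeR). In α cells 0 were higher and 49 lower of 84, with the same 3 mitochondrial genes lower (-0.49, -0.41 and -0.47), where 21.6% differed, 11.4% higher and 10.2% lower. The nuclear median was -0.27 in β and -0.26 in α cells, against 0.01 and 0.00 over all genes. By complex, lower calls in β cells were 24 of 36 in complex I, 0 of 4 in complex II, 4 of 8 in complex III, 8 of 11 in complex IV and 9 of 15 in complex V, and in α cells 25, 0, 5, 8 and 9. mt-Cytb was lower in the later run in 10 of 10 pairs of libraries in each cell type, with medians of 5805 against 4207 CPM in β and 4714 against 2995 CPM in α cells. Ndufs5 had the largest values, -0.90 ± 0.26 in β and -0.93 ± 0.31 in α cells.

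Lower calls in the later run were more frequent among shorter genes, and members are short (median length 1701 bases, against 4057 over all genes tested in β cells). Of genes up to 1 kb, 22.0% were lower in β cells, and of genes over 4 kb 6.20%. Over genes, which are no replicates of each other, the Spearman correlation of length with the run difference was 0.263 in β and 0.351 in α cells. Beside these shares, the nuclear members that were lower numbered 15 of 21 up to 1 kb, 17 of 30 from 1 to 2 kb (14.7% of all), 11 of 23 from 2 to 4 kb (12.4%) and 5 of 11 over 4 kb in β cells. In α cells these were 13 of 20 (23.9% of all), 18 of 30 (20.5%), 13 of 23 (12.4%) and 5 of 11 (4.93%). Depth also differed between the runs, and acinar markers were higher in the later run in α cells (6 of 11). The part of length, of depth and of acinar RNA was not tested, and the run cannot be told apart from whatever else differed between replicates. The DOX effect differed between the runs for 0 members in β and 0 in α cells (edgeR and DESeq2), where 0.0461% of all genes did in β cells (0.00658% with a more positive and 0.0395% with a more negative effect in the later run) and 0.114% in α cells (0.0067 and 0.107%), with 2 and 1 members at an unadjusted p under 0.05 (6.51 and 5.3% of all genes).

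Rhythms were fitted as a cosine of 24 h plus the run in the 12 libraries of each cell type and treatment, with amplitudes as the log2 distance from mean to peak. Rhythms among members were few outside DOX β cells. In control β cells 2 of 93 passed, where 2.17% of all genes did (edgeR). Cox6a2 was among them, with an amplitude of 0.73 ± 0.13 and its peak at ZT2.03 (adjusted p = 0.0371).

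In control α cells 2 of 92 passed, where 4.49% of all genes did. The complex I assembly factor Ndufaf4 was among them and peaked at ZT19.9 (0.38 ± 0.06, edgeR adjusted p = 0.00715). In DOX α cells 0 of 91 passed, where 2.82% of all genes did. The lowest p belonged to Cox7a2l, Ndufs8 and Ndufa7 (adjusted p = 0.109, 0.127 and 0.133). At an unadjusted p under 0.05 there were 13 members, where 19.9% of all genes were, and DESeq2 called 1, where it called 8.87% of all genes.

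In DOX β cells 16 of 85 nuclear members and 0 of 8 mitochondrial genes passed, where 11.6% of all genes did. Sdhb, the iron-sulfur subunit of complex II, lies on chromosome 4 (bases 140961203 to 140979193). Its replicates 1 and 2 stood at 55.4 and 60.7 CPM at ZT0, 61.8 and 52.5 at ZT4, 57.9 and 47.0 at ZT8, 45.9 and 40.1 at ZT12, 52.0 and 41.2 at ZT16, and 68.6 and 50.8 at ZT20. The mean was thus lowest at ZT12 and ZT16. The peak was at ZT0.39 with an amplitude of 0.28 ± 0.05 (edgeR adjusted p = 0.0179). Control β cells gave Sdhb an amplitude of 0.07 (edgeR adjusted p = 0.73). Atp5g1 peaked at ZT23.2 (0.47 ± 0.09, adjusted p = 0.0208). Others called were Cox5a, Ndufc2, Cox7b, Ndufaf7, Ndufa13, Ndufv3, Cox6c, Ndufb6, Atp5g3, Atp5k, Uqcrc2, Uqcrb and Ndufa8, with peaks from ZT20.7 to ZT4.40. Peaks of all nuclear members tested, called or not, gathered around lights on, with 38 of 85 in the 4 h around ZT0 (44.7%, against 14.9% of all genes tested) and 37 around ZT4 (43.5%, against 13.6%). In control β cells 43 of 85 lay around ZT4 (50.6%, against 19.4%), and 7 of the 8 mitochondrial genes lay around ZT8 without passing. In DOX α cells, where 0 passed, 40 of 84 lay around ZT4 (47.6%, against 14.8%) and 28 around ZT8 (33.3%, against 21.2%). Control α cells had 23 of 84 around ZT0 (27.4%, against 13.3%) and 21 around ZT20 (25%, against 22.7%). Of the mitochondrial genes, 5 of 8 lay around ZT16 in control α and 6 of 7 around ZT4 in DOX α cells. Members share libraries, so peaks of this kind are not independent of each other.

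These rhythm calls rested on few libraries. In DOX β cells the count of 16 became 0 without a run term and 0 with time as 6 levels, 4 without a filter on low counts, 7 without the ZT0 libraries, which all come from the later run, and 35 with DESeq2. Leaving out 1 DOX β library gave 0 (ZT20 replicate 1), 1 (ZT8 replicate 1), 2 (ZT16 replicate 1), 3 (ZT8 replicate 2 or ZT12 replicate 1), 4 (ZT20 replicate 2), 6 (ZT4 replicate 1 or ZT16 replicate 2), 7 (ZT0 replicate 2) or 31 (ZT12 replicate 2). Sdhb passed in 11 of these 12 refits and not without ZT20 replicate 1 (adjusted p = 0.0572), and Atp5g1 did not pass without that library or either of ZT8 (adjusted p up to 0.0788). In control β cells the count of 2 became 0 without ZT4, ZT8, ZT16 or ZT20 replicate 1 or ZT12 replicate 2, and 1 without ZT0, ZT8 or ZT16 replicate 2. Cox6a2 did not pass without any 1 of these 8 libraries, without a run term (adjusted p = 0.148), without the ZT0 libraries (adjusted p = 0.0582) or with time as 6 levels. In control α cells the count of 2 became 1 without ZT8 or ZT16 replicate 1 or ZT12, ZT16 or ZT20 replicate 2, and 4 without ZT0 replicate 1. Ndufaf4 passed in 12 of 12 refits there and did not pass with time as 6 levels, which gave 0 calls. A difference of rhythm was called for 0 members (edgeR) between DOX and control β cells, DOX and control α cells, or control β and α cells, where 0% of all genes were called each time. At an unadjusted p under 0.05 these gave 5, 5 and 2 members, where 4.66, 2.52 and 6.33% of all genes were. Cox6a2 was among the 2 between control β and α cells, and its values in α cells were near 0. DESeq2 called 0, 0 and 1, where it called 0.0198, 0 and 0.696% of all genes. A rhythm called in 1 set and not in another is therefore not shown to differ.

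**Figure D5:**
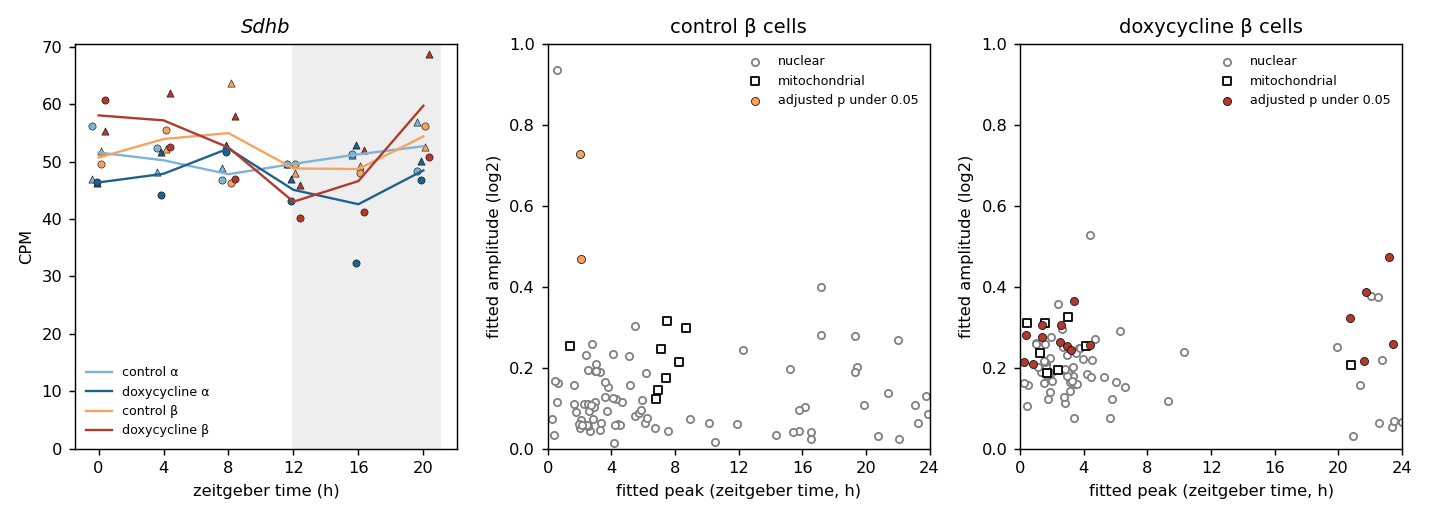
Left, CPM of Sdhb by zeitgeber time (h) in control and DOX α and β cells, with triangles for replicate 1, circles for replicate 2 and lines through the mean. Middle and right, fitted amplitude (log2) against peak time (h) of every tested member in control and DOX β cells, filled where the edgeR adjusted p was under 0.05. Sdhb in DOX β cells is lowest in the mean at ZT12 and ZT16, and most nuclear members of DOX β cells have their fitted peak within 4 h of ZT2.

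Genes that serve the complexes from outside were read from 5 lists. In DOX β cells the list of electron carriers and biogenesis regulators had 1 of 18 higher and 5 lower, with the coactivators Ppargc1a (-1.25 ± 0.24) and Ppargc1b (-0.56) and the factors Nrf1 (-0.26) and Esrra (-0.16) lower and cytochrome c, Cycs (0.57 ± 0.13), higher. Of 16 genes that handle mitochondrial RNA 2 were higher and 5 lower, among them Lrpprc, which stabilises mitochondrial messengers (-0.61 ± 0.06). Of 35 assembly factors outside the symbol rule 1 was higher and 8 lower, with Coa7 at -0.64 ± 0.07 and Uqcc2 at -0.38. Of 78 mitochondrial ribosomal proteins 12 were higher and 8 lower, and of 13 tricarboxylic acid cycle enzymes 1 was higher (Suclg1, 0.18) and 2 lower (Suclg2, -0.35, and Sucla2, -0.22). The background of 46.9% applies to these counts too.

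Between control β and α cells Ppargc1a was lower in β cells (-1.12 ± 0.17) and Ppargc1b higher (0.92), 5 higher and 8 lower of 18 carriers and regulators. Of the cycle enzymes 7 were higher and 2 lower of 13, with Fh1 (0.80) and Ogdh (0.45) higher and citrate synthase, Cs (-0.54), lower. Assembly factors outside the rule had 16 higher and 9 lower of 35, RNA handling 5 and 4 of 16, and mitochondrial ribosomal proteins 16 and 29 of 78, where 34.2% of all genes were higher and 37.3% lower. In DOX against control α cells 0 genes of the 5 lists passed. In the later against the earlier run 0 mitochondrial ribosomal proteins were higher and 29 lower of 78 in β cells (11.3 and 10.1% of all genes), and 1 and 25 in α cells (11.4 and 10.2%).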

How the data were processed

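RNA of sorted α and β cells was sequenced from polyA libraries made with a kit that does not mark strand (300 ng, TruSeq v2, per the labels' protocols). bcl2fastq, STAR and GRCm38 are named in the submitters' processing notes. The counting program and its treatment of shared reads are not given in the sources used here. The authors deposited estimated counts of genes, which need not be whole, and RPKM values, in 1 table of each kind for each run. Each deposited RPKM was recomputed from the count, gene length and library total (largest relative difference 9.6e-10), and was used for levels between genes. Whole low counts were almost all even (99.7 to 100% per library), so 1 fragment adds 2 there.

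Counts were rounded, filtered (edgeR's filterByExpr by group, minimum count 10, total 15), scaled by TMM and tested with edgeR 4.0.16 in R 4.3.3 (prior count 2, quasi-likelihood, threshold 0.05 on p-values adjusted over all genes by the Benjamini-Hochberg method). Time (6 levels) and run were terms. Of 105 members, 93 passed the filter in most fits, 92 in α-cell fits (91 for rhythms in DOX α cells) and 94 over all 48 libraries. A member that passes only where it is high had to differ, as Cox6a2 did between cell types, so its fold change and p there are not given. Alternatives were DESeq2 1.42.0, its size factors, no filter, no run term, a replicate block, each run, other scaling and each library left out. All 96 table columns matched a label. Some of the tests were tried on simulated counts with planted changes but no run effect. Roles and lists were fixed by hand. Genes are named by rule if mitochondrial, of a fixed set of subunits, an isoform or partner, or a c-ring gene. The rule also names the 4 largest rises or falls of a comparison at 10 CPM or more, and the 3 lowest p of a rhythm. Others named were chosen after their values were seen. Members, lists and tests were chosen with earlier results of these data known. 1 member is not reported here.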

Additional observations from a re-analysis of the deposited data

Results flagged for a closer look

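For 8 members the doxycycline effect differed between β and α cells in an interaction test over 48 libraries (edgeR, log2 difference of the effects, β minus α, ± SE). Ndufa1 differed by 0.88 ± 0.16, from effects of 0.99 in β and 0.09 in α cells. Sdha differed by -0.34 ± 0.08 (-0.40 and -0.07), Atp5s by -0.32 ± 0.08 (-0.28 and 0.02) and Atp5g1 by 0.47 ± 0.14 (0.49 and 0.01). mt-Co1, with a value of -0.45 ± 0.14, was lower in β and above 0 in α cells (-0.29 and 0.15). Ndufc2 differed by 0.39 ± 0.12 (0.45 and 0.05), Uqcrq by 0.40 ± 0.14 (0.41 and -0.01) and Ndufs4 by 0.28 ± 0.10 (0.22 and -0.08). The call of Ndufs4 (adjusted p = 0.0436) was lost without any 1 of 26 libraries. Ndufa1 was called in each run alone, Sdha and Atp5g1 in the earlier run alone, and the other 5 in neither.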

How the results depend on the processing

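Of the calls on members named by rule in a comparison, rhythms aside, 0 turned direction under the alternatives run. Rhythm calls and other named members were not checked for a turn. What moved were counts of calls, and single calls were lost or gained. With DESeq2 the counts were 14 (against 8) for the difference of the doxycycline effect between cell types, 1 (against 0) for doxycycline in α cells, 1 (0) for the difference of rhythm between β and α cells, and for rhythms 4 (2) in control α, 4 (2) in control β, 1 (0) in DOX α and 35 (16) in DOX β cells. Without a run term the difference of effects gave 5, and rhythms 1 in control α, 1 in control β and 0 in DOX β cells. Without a filter on low counts, doxycycline in α cells gave 1 and rhythms in DOX β cells 4. The earlier run alone gave 3 and the later run alone 1 for the difference of effects, and the later run alone 6 (against 20) for doxycycline in β cells. With time as 6 levels, rhythm counts were 0 in control α, control β and DOX β cells. Without the ZT0 libraries, an alternative chosen after seeing the data, DOX β cells gave 7 rhythmic members, of which 6 were among the 16. The median mitochondrial share with Gcg, Ins1 and Ins2 left out of the total was 2.26% in control α, 2.77% in DOX α, 2.64% in control β and 2.39% in DOX β cells. The share of all counts in control α cells, 1.60% over both runs, was 1.97% in the earlier run alone.

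With each library left out in turn, counts ranged from 56 to 61 for β against α cells in controls and 45 to 53 in DOX mice, 18 to 24 for doxycycline in β and 0 to 1 in α cells, 6 to 16 for the difference of effects, 43 to 60 for the run in β and 47 to 61 in α cells. For rhythms they ranged from 0 to 3 in control β, 0 to 31 in DOX β, 1 to 4 in control α and 0 to 1 in DOX α cells, and were 0 throughout for differences of rhythm and for the difference of the doxycycline effect between runs. Replicate numbers correlated across groups from -0.48 to 0.48 in their deviations, so they do not all pair the libraries. With the replicate block the counts were 59 and 47 for β against α cells in control and DOX mice, 19 and 0 for doxycycline in β and α cells, 7 for the difference of effects, and for rhythms 2, 2, 0 and 1 in control α, control β, DOX α and DOX β cells. With the ZT0 numbers of the doxycycline libraries crossed, chosen after seeing the data, the block gave 19 and 0 for doxycycline in β and α cells, with 0 mitochondrial genes among the 19.

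Limits are the 2 libraries per group and time, of which 5 of 6 pairs are split between runs of different depth, and the 6 mitochondrial genes near 0, of which 5 did not pass the filter and mt-Nd3 did on few counts.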
